A study of Mus musculus with 46 samples.

Results

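Hnf4a, Cebpa, Foxa1, Foxa2, Foxa3, Onecut1, Prox1, Ppara and Rxra encode transcription factors that define the hepatocyte, the main cell of the liver. These 9 genes, of 18193 measured, were followed after a single dose of carbon tetrachloride (CCl4), a solvent whose breakdown by hepatocytes yields a damaging radical. They were chosen by name, each was read from 1 probe set, the brightest on average of those that name that gene and no other, and all 9 passed the filter on low values. Livers came from male C57BL/6N mice aged 8 to 10 weeks. The treated groups received 1.6 g/kg CCl4 in olive oil into the peritoneum and were taken 2 h, 8 h, 1 d, 2 d, 4 d, 6 d, 8 d and 16 d later, with 6 arrays at 16 d and 5 at each other time. The 5 control arrays are titled as controls and come from untreated mice, although their treatment tag also reads CCl4. The injection and its oil are therefore part of every comparison with control. Within a group the arrays are numbered, but no label states that every array is a separate animal. The p-values therefore reflect the spread between arrays, and part of that spread may be technical.

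Hepatocyte identity is held by a network of factors that bind each other's genes and the same enhancers. HNF4A is a nuclear receptor that keeps most liver-specific genes active, and C/EBP alpha (Cebpa) drives metabolic genes and restrains proliferation. The 3 FOXA proteins are pioneer factors that open chromatin, ONECUT1 (HNF6) acts in hepatocyte and bile duct development, and PROX1 is a homeobox factor that can act as a corepressor of HNF4A and NR5A2. PPAR alpha (Ppara) senses fatty acids and switches on their oxidation, and it binds DNA as a dimer with RXR alpha (Rxra), the shared partner of the receptors for bile acids, xenobiotics, oxysterols and retinoids.

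The sites these proteins bind are short, and a few promoter sequences are shown for genes whose values are given further on. RefSeq promoter windows (GRCm38.p6, 250 bases before to 50 after a start site) were searched on both strands for 5 motifs. These were TGTTTAC for FOXA (in 3.65% of 32851 windows), ATCGAT for ONECUT1 (0.925%), TTGCNNAA for C/EBP (10.8%), CAAAGTCCA for HNF4 (0.475%) and AGGTCA, the hexamer of nuclear receptors such as RXR and PPAR (16.3%). No matches of different motifs overlapped in windows with a match. All 9 factors had a window, 14 in all, and 2 of the 14 held a motif. Capitals mark only matches of the motif named for each sequence. AGGTCA in the F9 sequence is therefore left in lower case. Strands are those of the gene, 5′ to 3′.
Foxa1, FOXA motif 141 bases before the start site, chr12:57546221-57546277, minus strand: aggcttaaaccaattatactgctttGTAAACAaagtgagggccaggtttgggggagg
Rxra, AGGTCA at 87 and 48 bases before a start site, chr2:27709180-27709274, plus strand: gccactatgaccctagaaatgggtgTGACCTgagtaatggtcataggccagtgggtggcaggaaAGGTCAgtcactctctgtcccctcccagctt
Cyp8b1, HNF4 motif 67 bases before the start site, chr9:121916339-121916397, minus strand: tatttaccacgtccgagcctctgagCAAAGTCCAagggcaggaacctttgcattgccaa
F9, C/EBP motif 24 bases before the start site, chrX:59999415-59999472, plus strand: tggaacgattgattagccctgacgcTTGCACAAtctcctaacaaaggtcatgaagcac
Cyp3a11, FOXA motif 198 bases before the start site, chr5:145880021-145880077, minus strand: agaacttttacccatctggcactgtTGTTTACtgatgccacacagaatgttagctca
Fabp1, AGGTCA 67 bases before the start site, chr6:71199787-71199842, plus strand: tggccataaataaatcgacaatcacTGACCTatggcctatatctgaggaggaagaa
These letters describe the windows and do not show that a factor binds there.

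Values are deposited log2 expression values, and tests are from 1 limma fit over all 46 arrays. A gene is called at an adjusted p (Benjamini-Hochberg over 13239 tested genes) under 0.05. A value after ± is the standard error of a log2 fold change unless an SD is named, and the median standard error over all tested genes was 0.0966 for 5 arrays against 5. The number of arrays limits the precision. Arrays of 1 group had pairwise correlations across genes, which are not independent replicates, from r = 0.947 at 1 d to r = 0.993. The mean of 11 hepatocyte markers lay between 12.90 and 13.05 in controls and between 12.33 and 12.99 at 1 d. Of the 11, 7 were called lower at 1 d (median -0.28), as were 25.1% of all genes. Some of these markers, such as Alb (14.77), Serpina1c (14.55) and Ttr (14.48) in controls, read near the top of the scale. The highest value of any tested gene was 14.66 to 14.86 per array, so the mean may understate a fall. In whole liver, fewer hepatocytes and less RNA per hepatocyte cannot be told apart.

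The factors did not move as 1 block. Hnf4a, Cebpa, Ppara and Rxra were lowest at 1 d and were not called at any time from 4 d on. Foxa1 was higher at 8 h and 2 d, Foxa2 was lower at 2 h and higher at 2 d, Prox1 was lowest at 2 h, and Foxa3 was called lower at 16 d only. Onecut1 was not called at any single time. All 9 passed the limma F-test for any difference from control over the course, as did 83.4% of all tested genes, so that count says little about these factors.

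**Figure D1:**
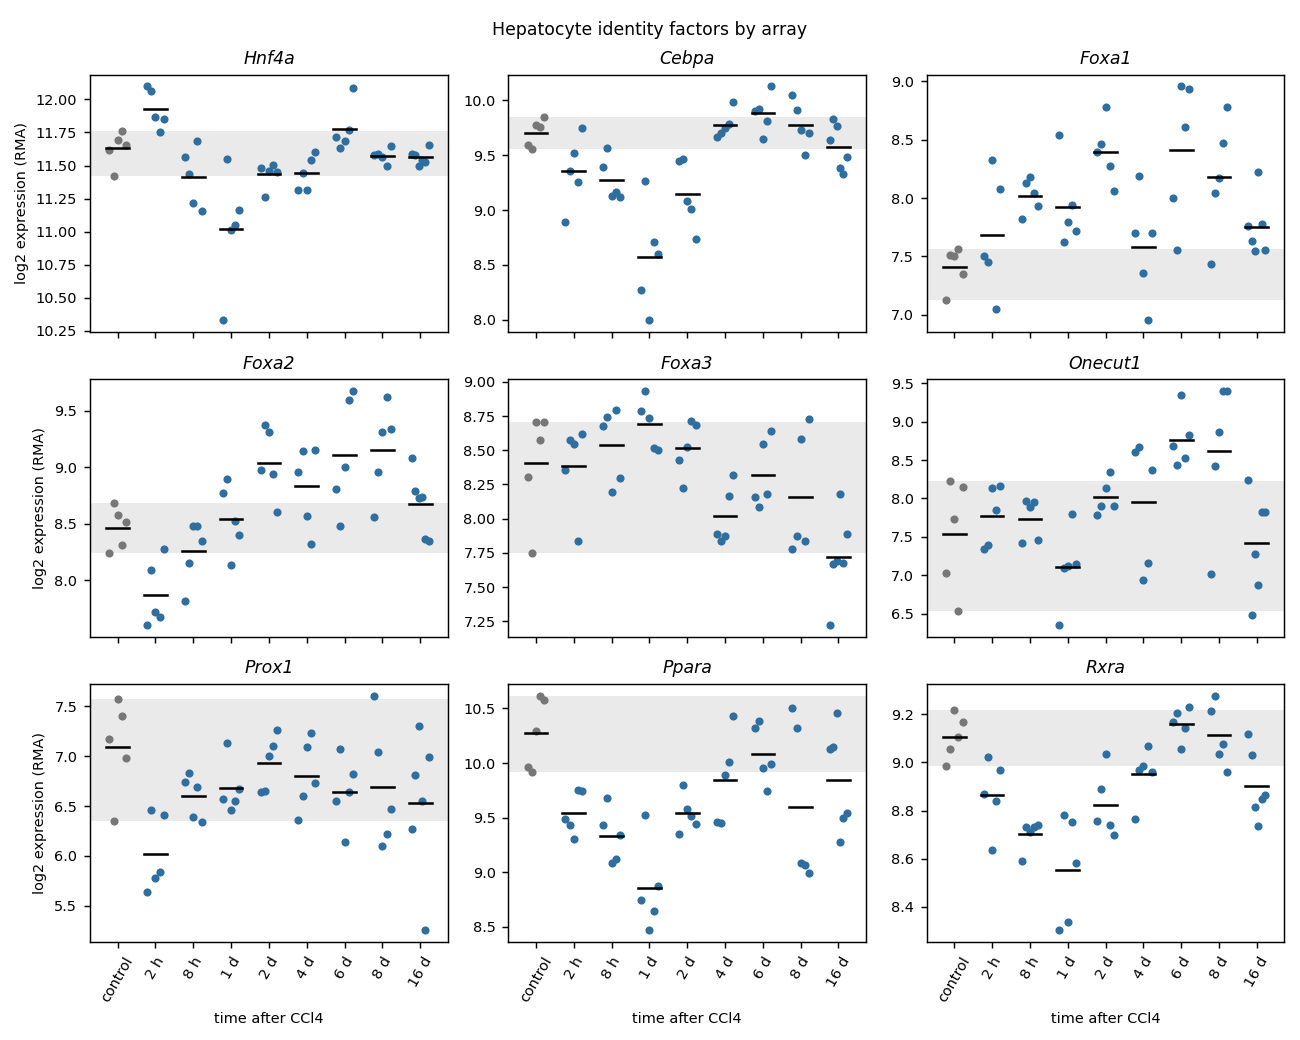
Log2 expression (vertical axis) of each of the 9 factors on all 46 arrays, by group (horizontal axis); points are arrays, black lines are group means and the grey band is the range of the 5 controls. Hnf4a, Cebpa, Ppara and Rxra dip at 1 d, and the Prox1 and Foxa2 means are lowest at 2 h. The Ppara points at 8 d and 16 d split into a high and a low set.

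Hnf4a, the central nuclear receptor of the network, had its lowest group mean at 1 d. Its control arrays read 11.62, 11.42, 11.69, 11.76 and 11.66. At 1 d the arrays read 10.33, 11.55, 11.01, 11.05 and 11.16. Array 1 at 1 d was far below the others, and array 2 lay within the control range. Hnf4a fell 1.53-fold at 1 d (log2 fold change -0.61 ± 0.12, n = 5 per group, adjusted p = 4.35e-05 with limma). Arrays 1 and 2 at 1 d stood apart from the other arrays of their group over all genes, and without both the change was -0.56 and still called. Cyclic loess normalization moved it to -0.39, still called, as did leaving out array 1 at 1 d (-0.44). At 2 h the arrays read 12.10, 12.06, 11.87, 11.75 and 11.85, and 4 of 5 lay above all controls. The difference at 2 h was 0.30 ± 0.12 and was not called (adjusted p = 0.0595). It was called under several other settings, with 0.42 after quantile normalization (adjusted p = 0.0119) and 0.50 after cyclic loess (adjusted p = 0.000969). From its level at 2 h, Hnf4a fell by 0.51 to 8 h and by a further 0.39 to 1 d, and then rose by 0.41 to 2 d (adjusted p = 0.000655, 0.00954 and 0.0062). From 2 d to 16 d its difference from control stayed between -0.20 and 0.15 and was not called.

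Cebpa, which holds hepatocytes in a resting, metabolic state, fell further. Controls read 9.59, 9.56, 9.77, 9.76 and 9.85. At 1 d the arrays read 8.27, 9.27, 8.00, 8.71 and 8.60, all below every control. The fall at 1 d was 2.20-fold (-1.14 ± 0.16, adjusted p = 9.73e-08, and -1.27 without arrays 1 and 2). At 8 h Cebpa differed by -0.43 ± 0.16 (adjusted p = 0.0247), and at 2 d by -0.56 ± 0.16 (adjusted p = 0.00466). Leaving out array 3, 4 or 5 at 8 h, or control array 5, ended the 8 h call (adjusted p from 0.0525 to 0.0632), and cyclic loess moved it to -0.26 (0.155). The steps down from 8 h to 1 d (-0.71), up from 1 d to 2 d (0.58) and up from 2 d to 4 d (0.63) were each called. At 4 d the arrays read 9.67, 9.70, 9.75, 9.78 and 9.98, with 4 within the control range and 1 above it. The difference between Hnf4a and Cebpa on the same array was larger than in controls at 2 h by 0.65 and at 1 d by 0.53, and smaller at 4 d by 0.26 (adjusted p = 0.0454 each over 40 such pair tests, two-sided exact permutation tests).

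Ppara, the fatty acid receptor, had the largest fall of the 9 factors in the fit without a clock covariate. With that covariate, given with the clock genes, its fall at 1 d was smaller than that of Cebpa. Controls read 9.96, 9.92, 10.30, 10.61 and 10.57. At 1 d the arrays read 8.75, 9.52, 8.47, 8.65 and 8.88, all below every control. Ppara fell 2.67-fold at 1 d (-1.42 ± 0.24, adjusted p = 3.76e-06). It was also lower at 2 h (-0.73 ± 0.24, adjusted p = 0.021), at 8 h (-0.94 ± 0.24, 0.00122) and at 2 d (-0.73 ± 0.24, 0.0131). The only step of Ppara that was called was the rise of 0.68 from 1 d to 2 d (adjusted p = 0.0238), and that call ended with the clock covariate. The 2 h call ended with quantile normalization (-0.58, adjusted p = 0.072) and cyclic loess (-0.51, 0.121). Leaving out array 3 at 2 h, or control array 4 or 5, ended it too (0.056 to 0.0614).

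Late Ppara values split within groups. At 8 d the arrays read 10.50, 10.32, 9.09, 9.07 and 8.99, so arrays 1 and 2 lay in the control range and the other three below it. At 16 d they read 10.13, 10.15, 10.45, 9.28, 9.49 and 9.54, again with arrays 1 to 3 in the control range and arrays 4 to 6 below it. The clock output gene Dbp, a factor of the daily rhythm, split the same arrays. Dbp read 10.31 and 10.10 on arrays 1 and 2 at 8 d and 5.07 to 6.12 on the others. At 16 d it read 9.60 to 10.02 on arrays 1 to 3 and 6.61 to 7.29 on arrays 4 to 6. Earlier groups were split in Dbp too, with arrays 1 to 3 set against arrays 4 and 5. At 2 h these sets read 6.40 to 6.58 and 9.38 to 10.13 (Ppara 9.31 to 9.49 and 9.75 on both). At 4 d they read 7.25 to 8.17 and 10.03 to 10.45 (Ppara 9.45 to 9.89 and 10.01 to 10.43). At 6 d they read 9.91 to 10.46 and 5.98 to 6.15 (Ppara 9.95 to 10.38 and 9.75 to 10.00). Controls were not uniform either, with Dbp from 8.34 to 10.62 and its 2 lowest values on arrays 1 and 2, which also had the 2 lowest control values of Ppara. The sources used here do not give the hour at which livers were taken.

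**Figure D2:**
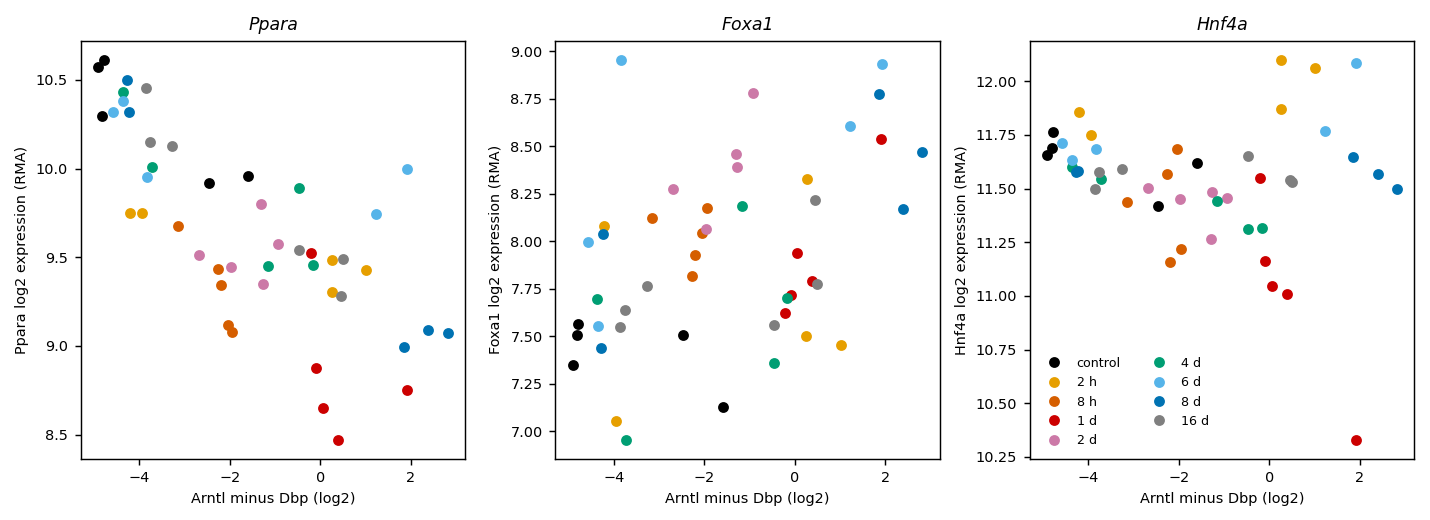
Log2 expression of Ppara, Foxa1 and Hnf4a (vertical axes) against the log2 difference of the clock genes Arntl and Dbp (horizontal axes) on each of the 46 arrays, coloured by group. Arrays with high Arntl minus Dbp have low Ppara in several groups, among them 8 d and 16 d, and the Hnf4a panel plots the same arrays on the same horizontal axis.

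With Arntl minus Dbp as a covariate, a fit added after the data were seen, the fall of Ppara at 1 d was -0.82 ± 0.17 (adjusted p = 0.00011) in place of -1.42. The 2 h call of Ppara ended in that fit (-0.38, adjusted p = 0.07), whereas those at 8 h (-0.74, 9.85e-05) and 2 d (-0.43, 0.0259) held. Its step from 1 d to 2 d was 0.39 in that fit (adjusted p = 0.053), no longer called. At 8 d the difference moved from -0.68 to -0.18, and neither was called. Arntl minus Dbp itself differed between the groups, from -4.91 to -1.59 in controls and from -0.21 to 1.92 at 1 d, so the covariate and the time after CCl4 overlap. The 1 d values of Hnf4a (-0.61), Cebpa (-0.96) and Rxra (-0.46) remained called with the covariate.

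Rxra, the partner of PPAR alpha, moved less. Controls read 8.98, 9.05, 9.22, 9.11 and 9.17. At 1 d the arrays read 8.30, 8.78, 8.34, 8.75 and 8.58, all below every control, and at 8 h they read 8.59, 8.73, 8.71, 8.73 and 8.74. Rxra fell 1.47-fold at 1 d (-0.55 ± 0.09, adjusted p = 7.06e-07), and it was lower at 8 h (-0.40 ± 0.09, 0.000125) and 2 d (-0.28 ± 0.09, 0.0075). It then rose by 0.27 from 1 d to 2 d (adjusted p = 0.0114). The call at 2 h (-0.24 ± 0.09, adjusted p = 0.0327) ended with arrays set to a common median (-0.20), quantile normalization (-0.11), cyclic loess (-0.04) and the clock covariate (-0.19). Leaving out array 1, 3 or 4 at 2 h, or control array 3, 4 or 5, ended it too (adjusted p from 0.053 to 0.132). A second Rxra probe set above the filter gave -0.02 at 8 h and was called at 1 d (-0.17, adjusted p = 0.0349) and 2 d (-0.19, 0.0232). The calls of Rxra at 2 h and 8 h rest on 1 probe set. On the same array, Ppara minus Rxra was lower than in controls at 1 d by 0.86 (mean 0.30 ± 0.32 SD, n = 5, against 1.17 ± 0.28 SD, n = 5, adjusted p = 0.0454, exact permutation test).

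**Figure D3:**
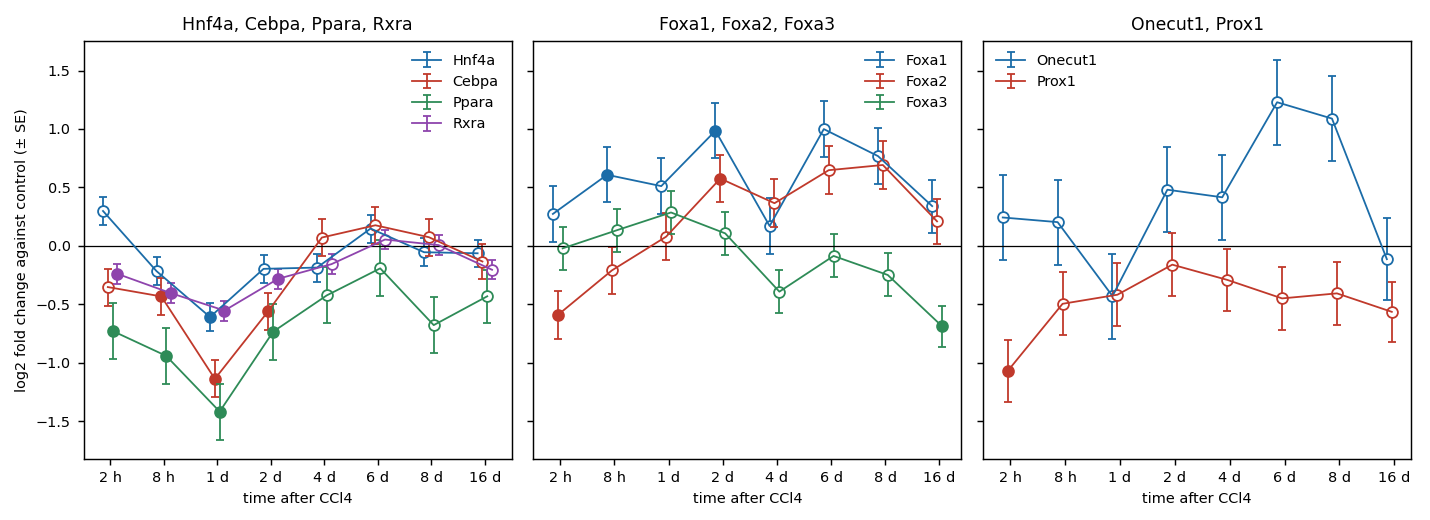
Log2 fold change against control (vertical axis, bars are standard errors from limma) at the 8 times after CCl4 (horizontal axis, evenly spaced and not to scale in time) for the 9 factors in 3 panels. Filled points are called; Ppara reaches -1.42 and Cebpa -1.14 at 1 d, Foxa1 0.98 at 2 d and Prox1 -1.07 at 2 h.

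The 3 FOXA genes, which encode closely related pioneer factors, were called at different times, apart from 2 d, when Foxa1 and Foxa2 were both higher. Foxa1 read 7.13, 7.51, 7.50, 7.56 and 7.35 in controls and 8.39, 8.46, 8.78, 8.28 and 8.06 at 2 d. All arrays at 2 d lay above every control. Foxa1 rose 1.98-fold at 2 d (0.98 ± 0.24, adjusted p = 0.000975) and was also higher at 8 h (0.61 ± 0.24, 0.0353). At 1 d it stood at 0.51 ± 0.24 and was not called (adjusted p = 0.0689), with all 5 arrays above every control, as in 16.7% of genes. The 1 d difference was called with only both groups in the fit (0.0244) or without array 2 at 1 d (0.0483). With the clock covariate it was 0.16 (adjusted p = 0.619), whereas the 2 d value stayed called (0.81, 0.00345). Leaving out array 2, 3 or 4 at 8 h, or control array 1 or 5, ended the 8 h call (adjusted p from 0.0551 to 0.0898). So did the clock covariate (0.49, 0.0658) and the Gapdh 3 prime minus 5 prime value, a sign of RNA integrity, as a covariate (0.57, 0.116). Foxa1 then fell by 0.82 from 2 d to 4 d and rose by 0.83 from 4 d to 6 d (adjusted p = 0.00751 and 0.0165). At 6 d the arrays read 8.00, 7.55, 8.96, 8.61 and 8.94. The mean at 6 d was 1.00 ± 0.24 above control but was not called there (adjusted p = 0.164), at a time when 3 of 13239 genes were called. Without array 2 at 6 d it was called (1.21, adjusted p = 0.0088). That array had high Dbp (10.46). Arrays 4 and 5 at 6 d, with low Dbp, read 8.61 and 8.94 in Foxa1, and array 3, with high Dbp (9.91), read 8.96. At 8 d the Foxa1 difference was 0.77 ± 0.24 and was not called (adjusted p = 0.192). Arrays 1 and 2 at 8 d, with high Dbp, read 7.44 and 8.04, and arrays 3 to 5, with low Dbp, read 8.17 to 8.77.

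Foxa2 read 8.24, 8.68, 8.57, 8.31 and 8.51 in controls. At 2 h the arrays read 7.60, 8.09, 7.72, 7.67 and 8.28, and 4 of 5 lay below all controls. At 2 d they read 8.98, 9.37, 9.31, 8.94 and 8.60, and 4 of 5 lay above all controls. Foxa2 was thus lower at 2 h (-0.59 ± 0.20, adjusted p = 0.027) and higher at 2 d (0.58 ± 0.20, 0.0217). The 2 h call ended with quantile normalization (-0.49, adjusted p = 0.0568) and cyclic loess (-0.40, 0.136). Leaving out array 1, 3 or 4 at 2 h, or control array 2, 3 or 5, ended it too (0.0523 to 0.076). The 2 d call ended with quantile normalization (0.44, 0.0605), the clock covariate (0.46, 0.0645), and the Gapdh covariate (0.42, 0.143). Leaving out array 2 or 3 at 2 d, or control array 1, ended it too (0.0562 to 0.0624). At 6 d and 8 d Foxa2 stood at 0.65 and 0.69 above control and was not called. Arrays 1 and 2 at 8 d, with high Dbp, read 8.56 and 8.96, and arrays 3 to 5, with low Dbp, read 9.31 to 9.62.

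Foxa3, which is linked to glucose and lipid metabolism in the liver, read 8.31, 7.75, 8.70, 8.57 and 8.71 in controls. At 16 d the lowest array read 7.22, the median 7.68 and the highest 8.18, which overlaps control array 2. The difference at 16 d was -0.69 ± 0.18, a 1.61-fold fall (adjusted p = 0.0394). It ended with quantile normalization (-0.60, adjusted p = 0.0715), cyclic loess (-0.59, 0.0866) and only both groups in the fit (-0.69, 0.0594). Leaving out array 1, 2, 3, 5 or 6 at 16 d, or control array 3, 4 or 5, ended it too (0.0524 to 0.177). Foxa3 also fell by 0.50 from 2 d to 4 d (adjusted p = 0.0345). At 1 d, when Hnf4a and Cebpa were lowest, it read 8.79, 8.93, 8.74, 8.52 and 8.50 (0.29 ± 0.18, adjusted p = 0.196).

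Tests on the difference between FOXA genes on the same array asked whether they diverged. Foxa1 minus Foxa2 exceeded its control value at 2 h by 0.87 and at 8 h by 0.82, and Foxa1 minus Foxa3 exceeded it at 16 d by 1.03 (adjusted p = 0.0454 each, two-sided exact permutation tests). At 6 d and 8 d Foxa1 minus Foxa3 was 1.09 and 1.02 above control (adjusted p = 0.0529 and 0.0595), which missed the threshold. At 8 d and 16 d Foxa1 minus Foxa2 was 0.08 and 0.13 above control (adjusted p = 0.619 and 0.51), and no Foxa2 minus Foxa3 test passed. Foxa1 and Foxa2 correlated at r = 0.64 within groups over 46 arrays, the highest of any pair of factors. Over the 9 group means they correlated at r = 0.59. In all 7 of the 40 pair tests passed. The smallest exact p for 5 arrays against 5 is 0.00794, and the number passing ranged from 0 to 17 over single arrays left out. Control arrays 1, 3, 4 and 5, array 3 at 2 h, arrays 1, 3 and 5 at 4 d and arrays 1 to 5 at 16 d each brought it to 0.

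Onecut1, a homeobox factor that regulates Hnf4a and Foxa2 during development, was the most variable of these genes between arrays. Controls read 7.02, 8.23, 7.73, 6.53 and 8.15. At 6 d the arrays read 8.68, 8.44, 9.34, 8.52 and 8.82, all above every control, a pattern seen in 0.899% of all tested genes at that time. The difference at 6 d was 1.23 ± 0.36 and was not called (adjusted p = 0.357), and that at 8 d was 1.09 ± 0.36 (0.241). Without array 1 at 8 d, which read 7.01 against 8.43 to 9.40 on the others, the 8 d value was called (1.49, adjusted p = 0.0458). That array had high Dbp (10.31), in the control range of 8.34 to 10.62. Array 2 at 8 d was high in Dbp too (10.10), and arrays 3 to 5 were low (5.07 to 6.12). The other Onecut1 probe set gave 1.65 at 6 d and 1.49 at 8 d, neither of them called. With p-values adjusted over all 8 times together, Onecut1 was called at 6 d (adjusted p = 0.0112) and 8 d (0.0268), as were Foxa1 (0.00137 and 0.0154) and Foxa2 (0.0175 and 0.0105). With the clock covariate the 8 d differences of Onecut1, Foxa1 and Foxa2 were 0.92, 0.47 and 0.50, and those at 6 d were 1.14, 0.85 and 0.55. The covariate was not fitted together with the joint adjustment. The neighbour of Onecut1 in the family, Onecut2, was lower at 2 h (-1.08 ± 0.17, adjusted p = 7.25e-06 with limma).

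Prox1, which also marks lymphatic endothelium, was called at 2 h only. Controls read 7.17, 6.35, 7.58, 7.40 and 6.98. At 2 h the arrays read 5.64, 6.46, 5.77, 5.83 and 6.41. Of these 3 lay below all controls, and the other two lay just above the lowest control. Prox1 fell 2.10-fold at 2 h (-1.07 ± 0.27, adjusted p = 0.00262), and -0.85 (0.0117) remained with the clock covariate. At later times its difference from control lay between -0.56 and -0.16 and was not called. Its other probe sets were below the filter on every array. With limma they gave -0.19 and -0.19 at 2 h and were not called there (adjusted p = 0.135 and 0.37). At 1 d both were called lower (-0.36, adjusted p = 0.000744, and -0.37, 0.0199), and 1 of them at 8 h too (-0.24, 0.0251). The 2 h call of Prox1 thus rests on 1 probe set. The lymphatic markers Lyve1, Pdpn, Flt4 and Reln had a mean of 7.14 to 7.47 in controls and 7.42 to 7.73 at 2 h. Lyve1 is also listed here as a sinusoidal endothelial marker and Reln as a stellate cell marker, so this mean is not specific to lymphatic cells. The part of these markers in the Prox1 result was not tested.

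The number of factors called is given beside the share of all genes called, and no test compares them. At 2 h, 4 of 9 were called and all were lower, while 26.3% of genes were called, 19.9% lower and 6.41% higher (1268 genes lower and 1326 higher after cyclic loess, against 2638 and 848). After quantile normalization or cyclic loess 1 factor was called lower at 2 h, Prox1, and 1 higher, Hnf4a. At 8 h, 3 were lower and 1 higher, against 24.2% and 17.7% of all genes (41.9% in either direction). At 1 d, 4 were lower and none higher, against 25.1% and 25.0% (50.0% in either direction), and 5 of 9 factors and 55.8% of all genes had an unadjusted p under 0.05. At 2 d, 3 were lower and 2 higher, against 18.9% and 21.1% (40.1% in either direction). With arrays shifted to the same median, which moved the median of all genes at 2 d to -0.10, 4094 genes were lower and 2245 higher at 2 d, in place of 2508 and 2799. The median over the 9 factors was -0.24 at 2 h, -0.22 at 8 h, -0.43 at 1 d and -0.16 at 2 d, beside -0.03, -0.04, -0.04 and -0.03 over all tested genes. Counted by arrays that do not overlap with control, 1 factor lay wholly below at 2 h (14.9% of genes did), 2 at 8 h (19%, or 2521 genes), 3 at 1 d (15.0%) and 2 at 2 d (10.7%). Foxa1 alone lay wholly above at 8 h (13.9%), 1 d (16.7%) and 2 d (15.7%).

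From 4 d on the calls stopped for these factors. With limma 0 of 9 were called at 4 d, 6 d and 8 d, where 6.95%, 0.0227% and 0.144% of all genes were called. At an unadjusted p under 0.05 the counts of factors were 1, 3 and 4, beside 18.8%, 6.90% and 9.96% of all genes, and unadjusted exact permutation tests gave 1, 3 and 2. At 16 d 1 was called lower, Foxa3, where 1.10% of genes were lower and 0.415% higher, 1.51% in all (145 and 55 genes, against 69 and 80 with arrays shifted to the same median).

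Between neighbouring times, 1 factor was called from 2 h to 8 h (Hnf4a, lower, where 15.4% of genes fell and 20.4% rose, 35.9% in all) and 2 from 8 h to 1 d (Hnf4a and Cebpa, both lower, where 10.9% fell and 20.8% rose, 31.7% in all). From 1 d to 2 d, 4 were called and all rose (Hnf4a, Cebpa, Ppara and Rxra, where 17.4% of genes rose and 15.0% fell, 32.4% in all). From 2 d to 4 d, 3 were called, with Cebpa higher and Foxa1 and Foxa3 lower (13.4% rose and 17.9% fell, 31.3% in all). From 4 d to 6 d Foxa1 alone was called, and it rose (3.51% rose and 7.30% fell, 10.8% in all). Hnf4a lay wholly lower at 8 h than at 2 h (8.86% of genes did). Cebpa lay wholly higher at 4 d than at 2 d (7.75%). Hnf4a lay wholly higher at 6 d than at 4 d (4.55%), a step at which it was not called. The direction of calls over all genes shifted with the scaling. With arrays shifted to the same median, 2345 genes rose and 2381 fell from 8 h to 1 d, in place of 2751 and 1443, and 2868 rose and 1912 fell from 2 d to 4 d, in place of 1772 and 2367. With quantile normalization 701 rose and 872 fell from 4 d to 6 d, in place of 465 and 966, and 11 were higher and 7 lower at 8 d, in place of 9 and 10. From 6 d to 8 d and from 8 d to 16 d 0 of 9 were called with limma (1 and 4 at an unadjusted p under 0.05, as were 7.17% and 10.6% of all genes). The shares of all genes called were 0.00755% and 0%. Leaving out array 3 at 2 h raised the first count to 2, leaving out array 1 at 1 d lowered the second to 1, and leaving out array 3 at 1 d lowered the third to 2. The count from 4 d to 6 d was 0 without array 4 at 4 d or arrays 3 or 5 at 6 d.

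Ordered by group mean, no pair of neighbouring groups differed beyond the sum of their spreads for any factor. Hnf4a ran from 1 d (lowest) through 8 h, 2 d, 4 d, 16 d, 8 d, control and 6 d to 2 h (highest), Cebpa and Ppara from 1 d to 6 d and to control, and Rxra from 1 d to 6 d. Foxa1 ran from control to 6 d, Foxa2 from 2 h to 8 d, Foxa3 from 16 d to 1 d, Onecut1 from 1 d to 6 d and Prox1 from 2 h to control. The range of group means was largest for Onecut1 and smallest for Rxra, as log2 differences within a gene. Over the 9 group means, Cebpa correlated with Rxra at r = 0.92, Cebpa with Ppara at 0.87 and Ppara with Rxra at 0.87, all sharing the same arrays and controls.

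Genes with the most similar course were found by the highest r over the same 9 group means among 13239 genes. For Hnf4a these were Gpc6 (0.974), D230025D16Rik (0.970) and Map6d1 (0.961). For Cebpa they were Abhd15 (0.974), the cytochrome P450 gene Cyp4f14 (0.973) and the complement protease gene C1ra (0.970). For Ppara they were Hsd17b10 (0.973), Mpv17l (0.963) and Fzd4 (0.963), and for Rxra they were Fcgrt (0.977), the glucagon receptor gene Gcgr (0.963) and Akr7a5 (0.962). For Foxa1 they were Tnfsf9 (0.843), Senp1 (0.836) and Recql4 (0.811), the lowest likeness of the 9. Foxa2 was closest to Lrfn3 (0.936), Sdhaf1 (0.929) and Paqr9 (0.929), and Foxa3 to Bcl7b (0.951), Ddx42 (0.951) and Fnbp4 (0.945). Onecut1 was closest to Rasal2 (0.915), Nsd3 (0.889) and Dyrk1b (0.858), and Prox1 to Gtf3c2 (0.944), Rcbtb1 (0.929) and the mitochondrial transcription factor gene Tfam (0.918). With 9 points and so many genes, high values of r arise readily, and they are given as a description.

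Among 30 other transcription factors of hepatocytes, 12 were lower and 1 higher at 2 h, 18 and 1 at 8 h, 19 and 2 at 1 d, and 9 and 2 at 2 d. The shares of all genes called lower at those times were 19.9%, 24.2%, 25.1% and 18.9%. The median of the list was -0.50 at 1 d, beside -0.04 over all genes. Nr0b2, the corepressor SHP, fell 4.77-fold at 8 h (-2.25 ± 0.30), and Nr5a2, which it restrains, was at -1.07 ± 0.14 at that time. Klf15, a regulator of amino acid and glucose metabolism, and Srebf1, which drives lipid synthesis, were 3.21-fold and 3.20-fold lower at 8 h. Dbp was 9.10-fold lower at 1 d (-3.19 ± 0.93), with the split between arrays described for Ppara.

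Of 13 tested RXR partners and related receptors, 7 were lower and 0 higher at 1 d, when 25.1% of all genes were lower, and the median was -0.28. The called receptors were led by Nr1h4, the bile acid receptor FXR, 2.26-fold lower (-1.18 ± 0.16), and Nr1i2, the xenobiotic receptor PXR, 1.92-fold lower (-0.94 ± 0.14). Nr1i3, the related receptor CAR, was 1.68-fold lower (-0.75 ± 0.20), and Thra, a thyroid hormone receptor, was 1.46-fold lower. The other RXR and PPAR subtypes Rxrb (0.08 ± 0.07), Ppard (0.01 ± 0.11) and Pparg (-0.28 ± 0.16) were not called at 1 d. Rxrb was called at 2 d (-0.27 ± 0.07) and Pparg at 4 d (-0.50 ± 0.16).

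Of 14 coregulators of these receptors, 3 were higher and 3 lower at 1 d, when 25.0% of all genes were higher and 25.1% lower, so the counts lie near the share of all genes. Ppargc1b, a coactivator of mitochondrial genes, was 3.13-fold lower at 1 d, and its relative Ppargc1a was lower at 8 h only (-0.64 ± 0.22). Lpin1, a coactivator of PPAR alpha, was 6.68-fold higher at 2 h. Kdm1a, a histone demethylase, was 1.84-fold higher at 8 h, and Smarca4, a chromatin remodeller, was 1.71-fold higher at 2 d.

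Of 15 C/EBP relatives and stress factors, 11 were higher and 0 lower at 2 h (median 1.96), when 6.41% of all genes were higher and Cebpa was not called (-0.35, adjusted p = 0.0944). At 1 d 13 were higher and 1 lower, when 25.0% of all genes were higher. Cebpb and Cebpd, the C/EBP proteins of the acute phase, rose by 1.96 ± 0.19 and 3.00 ± 0.22 at 2 h and were still above control at 1 d (0.53 ± 0.19 and 1.11 ± 0.22). The genes of this list with the largest change were the immediate early genes Fos (44.6-fold), Atf3 (32.0-fold), Jun (31.7-fold) and Egr1 (19.2-fold), each at 2 h.

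Genes known as targets of these factors were followed as lists, which overlap. Of 24 tested HNF4A targets 19 were lower and 1 higher at 1 d, with a median of -0.75. At that time 25.1% of all genes were lower and 25.0% higher. Cyp7a1, which catalyses the first step from cholesterol to bile acids, was 11.8-fold lower (-3.56 ± 0.51), and Cyp8b1, the enzyme of cholic acid synthesis whose HNF4 motif is shown above, was 8.32-fold lower (-3.06 ± 0.47). Apoa4, a lipoprotein gene on the same list, was 8.22-fold higher (3.04 ± 0.29). Of these 24 genes 9 were lower at 2 h, when Hnf4a itself was not below control, and 14 were lower at 2 d. At 4 d 1 was lower and 2 higher. Over all genes 19.9% were lower at 2 h and 18.9% at 2 d, and 6.95% were called in either direction at 4 d.

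**Figure D4:**
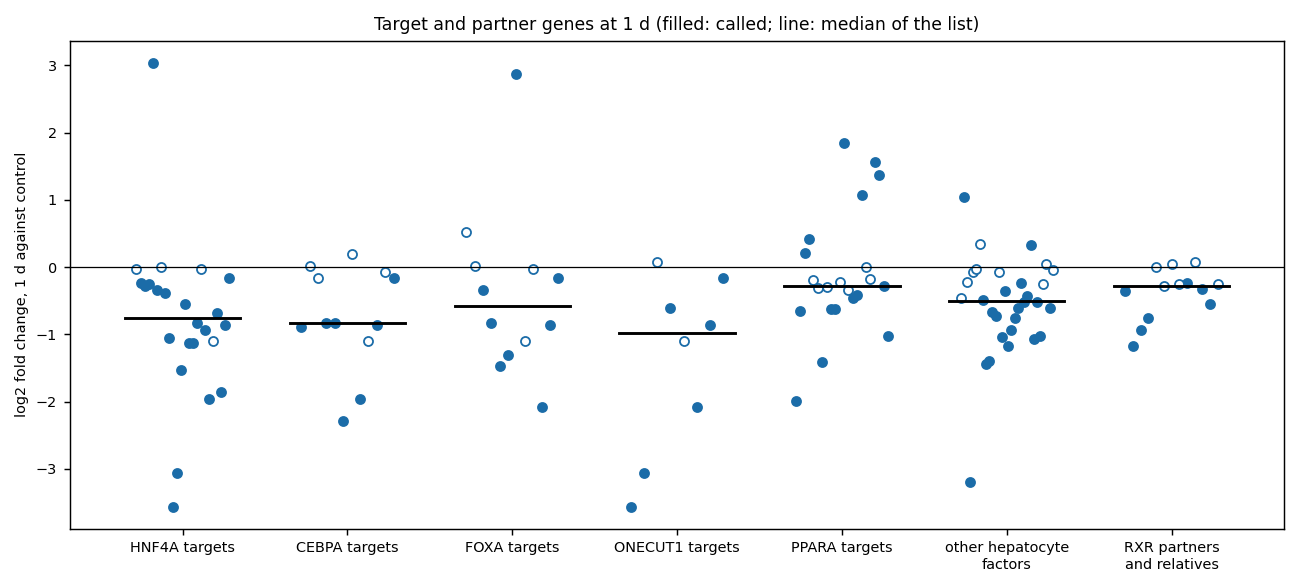
Log2 fold change at 1 d against control (vertical axis) of the tested genes on 7 lists of targets, partners and other hepatocyte factors (horizontal axis); each point is a gene, filled points are called and lines are list medians, at -0.75 for HNF4A targets and -0.29 for PPARA targets. Lists share genes, and the ONECUT1 list holds Hnf4a and Foxa2.

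Of 12 CEBPA targets 7 were lower and 0 higher at 1 d (median -0.83), against 25.1% and 25.0% of all genes. The glycogen synthase gene Gys2 was 4.90-fold lower (-2.29 ± 0.29) and the urea cycle gene Otc 3.90-fold lower (-1.96 ± 0.17) at 1 d. F9, the clotting factor gene with a C/EBP motif close to its start site, was at -0.83 and was called. The motif was found in 2 of the 7 windows available for this list, those of F9 and Alb. The Alb probe set read 14.70 to 14.81 in controls, at the top of the scale (the highest value of any tested gene was 14.66 to 14.86 per array), so its level of 0.02 ± 0.04 against control at 1 d is no measure of change. Trib1, which promotes the breakdown of C/EBP alpha protein, was 3.29-fold higher at 2 h.

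Of 12 FOXA targets 7 were lower and 1 higher at 1 d (median -0.58), against 25.1% and 25.0% of all genes. The glucose transporter gene Slc2a2 was 4.23-fold lower and Cyp3a11, with a FOXA motif in its window, was at -1.47 and was called. Igfbp1, a binding protein of insulin-like growth factors, was 12.9-fold higher at 2 h, and the fetal gene Afp was 4.94-fold higher at 2 d (2.30 ± 0.32). Foxa1 and Foxa2 were called higher at 2 d too, as were 21.1% of all genes, and a link to Afp was not tested. Pck1, a gluconeogenic enzyme gene on 4 of the lists, was 5.42-fold lower at 2 d (-2.44 ± 0.49). Of 8 tested ONECUT1 targets, which include Hnf4a and Foxa2, 6 were lower and 0 higher at 1 d, against 25.1% and 25.0% of genes. Ttr, a plasma carrier protein gene on 4 lists, was at -0.16 ± 0.04 at 1 d and was called.

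PPARA targets were mixed at the time of the lowest Ppara level, with 9 of 22 lower and 6 higher at 1 d (median -0.29). At that time 25.1% of all genes were lower and 25.0% higher, so the count of 6 higher lies near the share of all genes. Acaa1b, a peroxisomal thiolase gene, was 3.99-fold lower (-1.99 ± 0.23), and Cpt1a, the gate of mitochondrial fatty acid uptake, was at -0.62 ± 0.18. AGGTCA was found in 6 of the 17 windows available for this list. Of these genes Cpt1a and Fabp1 (-0.42) were called lower at 1 d, Acadm (0.42) and Plin2 (1.37) higher, and Acadvl (-0.19) and Creb3l3 (-0.22) were not called. Cyp4a14, a fatty acid hydroxylase gene, was 3.60-fold higher (1.85 ± 0.70, adjusted p = 0.0255 with limma). At 8 h 11 were lower and 3 higher, against 24.2% and 17.7% of all genes, with the fatty aldehyde dehydrogenase gene Aldh3a2 4.00-fold lower. Fgf21, a hormone gene that stress factors also induce, was 13.3-fold higher at 2 h (3.74 ± 0.33).

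Of 10 biliary and fetal genes tested, 1 was higher and 2 lower at 1 d, and 2 were higher and 1 lower at 2 d. Over all genes 25.0% were higher and 25.1% lower at 1 d, and 21.1% and 18.9% at 2 d. The counts of this list do not exceed those shares. Sox9, a bile duct factor that injured hepatocytes also express, was 2.23-fold higher at 1 d (1.16 ± 0.24), and Cd24a, a progenitor surface marker, was 2.13-fold higher at 2 d. Of the cholangiocyte markers, Epcam was called lower at 1 d (-0.22), and Krt19 (0.02) and Muc1 (-0.12) were not called.

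Markers of other cells moved over the same times. The mean of 10 myeloid markers was 6.69 to 6.76 in controls, 7.54 to 8.27 at 1 d and 7.31 to 8.68 at 2 d, with 5 and 6 of 10 genes called higher. The mean of 11 stellate cell markers was 6.94 to 7.18 in controls and 7.66 to 8.64 at 2 d, with 8 called higher. Proliferation markers had a mean of 5.78 to 6.25 in controls and 8.07 to 9.11 at 2 d, with 8 of 8 called higher, when Foxa1 and Foxa2 were called higher and Cebpa lower. Over all genes 25.0% were called higher at 1 d and 21.1% at 2 d. The Gapdh 3 prime minus 5 prime value was 0.275 to 0.433 in controls and -0.0631 to 0.304 at 2 h. The part of these shifts in the results on the 9 factors was not tested beyond the covariate fits given.

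Other probe sets of the same genes served as a check. Hnf4a had 4 probe sets above the filter, and all 4 were called lower at 1 d (-0.61, -0.45, -0.58 and -0.33). Of its 3 other probe sets, 2 were called higher at 2 h (0.48 and 0.23). The 3 Ppara probe sets gave -1.42, -1.46 and -0.93 at 1 d, and each was called. The probe set with the smallest fall was not called at 2 h (-0.45, adjusted p = 0.131) or 2 d (-0.49, 0.0581), where the Ppara calls therefore do not hold in every probe set. Cebpa and the 3 Foxa genes had 1 probe set each, so they have no such check.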

How the data were processed

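Liver RNA was primed with oligo-dT, turned into biotin-labelled cRNA and hybridised to Affymetrix mouse whole-genome arrays, per the labels' protocols. The deposited table holds log2 expression. According to the submitters' processing notes the authors used oligo 1.52.0 with RMA. RMA corrects background, quantile-normalizes arrays and summarises probes, so shifts common to most genes are removed. Scan dates are not given in the sources used here.

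Of 45101 probe sets 34945 named 1 gene, 932 several and 9160 none, and 64 were controls. Symbols were updated through Entrez IDs for 34741 of them. Each gene was read from its brightest probe set. It was tested if 5 or more arrays lay above 5.55823, the overall median, and 13239 of 18193 genes were. Group means of all 46 arrays were fitted with limma 3.58.1 in R 4.3.3 (37 residual degrees of freedom), with Benjamini-Hochberg adjustment within a contrast. Differences between 2 factors on an array were tested by two-sided exact permutation over 40 tests. The members and lists were chosen with earlier results of these data known. Named genes are the 9 factors, the 3 closest in course to each, the 4 largest called changes of each list and a fixed panel, of which 6 genes are not analysed here; F9, Cyp3a11, Fabp1, the other genes with AGGTCA and the markers Krt19, Epcam and Muc1 were named after their values were seen. Alternatives were other scalings, filters, probe sets, models, adjustments, a replicate block and arrays left out; the clock covariate was added after seeing the data. The fit was tested on simulated data. Plots used Python 3.11.15 and matplotlib 3.10.9.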

Additional observations from a re-analysis of the deposited data

Results flagged for a closer look

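In 3 of 81 combinations of a factor and a group, 1 array stood far from the rest of its group by the gap to its nearest neighbour relative to the group's range; chance alone would give about 1 in 20. Hnf4a read 11.27 on array 2 at 2 d, below 11.45 to 11.50 on the other four. Foxa1 read 8.22 on array 4 at 16 d, above 7.55 to 7.78 on the others. This array was among those with low Dbp, as were arrays 5 and 6, which read 7.78 and 7.56 in Foxa1. Rxra read 8.59 on array 1 at 8 h, below 8.71 to 8.74 on the others. None of these arrays decides a call of its factor against control.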

How the results depend on the processing

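Numbers of factors called, with the reported value first, changed as follows under other settings. At 2 h the count of 4, all lower, became 2 with quantile normalization or cyclic loess (1 lower and 1 higher) or the clock covariate (2 lower). At 8 h 4 became 2 when a log2 fold change of at least 0.5 was also asked. At 4 d 0 became 1 with exact permutation tests. At 6 d 0 became 3 with p-values adjusted over all times or with exact permutation tests, and at 8 d 0 became 4 and 2. At 16 d 1 became 0 with quantile normalization, cyclic loess, a replicate block or both groups alone in the fit, and 3 with exact permutation tests. From 2 h to 8 h 1 became 2 with quantile normalization, cyclic loess or both groups alone. From 8 h to 1 d 2 became 4 with quantile normalization or cyclic loess and 1 with the largest-variance probe set, the fold threshold or both groups alone. From 1 d to 2 d 4 became 2 with the fold threshold or both groups alone, and 6 with the clock covariate, where Ppara was lost and Foxa1, Foxa2 and Onecut1 were gained. From 4 d to 6 d 1 became 3 with quantile normalization, 2 with cyclic loess, 3 with array weights and 2 with the joint adjustment, and from 8 d to 16 d 0 became 1 with the joint adjustment. The cause was not tested. With single arrays left out the counts ran from 1 to 5 at 2 h, 2 to 5 at 8 h, 4 to 5 at 1 d and at 2 d, 0 at 4 d, and 0 to 1 at 6 d, 8 d and 16 d. For the steps they ran from 1 to 2, 1 to 3, 2 to 5, 2 to 3 and 0 to 1, and 0 for the later ones. The count passing the F-test ran from 8 to 9, Prox1 being the one lost, and the pair tests from 0 to 17. Rxra turned sign with other probe sets, to 0.0921 (the other probe set above the filter) and 0.0264 (a dim one below it) at 2 h and 0.0218 (the dim one) at 8 h. The 1 d calls of Hnf4a, Cebpa and Ppara held under every alternative run, and that of Rxra under all but its dim probe set (-0.03).

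Same-numbered arrays of a time and control correlated at -0.15 to 0.26, over 0.1 in 8 of 40 pairs. Differently numbered arrays were not compared, so these values cannot decide whether the numbers carry a shared structure. Dbp split several groups by array number, as described for Ppara. With the replicate block Foxa3 at 16 d was -0.72 (adjusted p = 0.0531), and the count over all genes at 16 d was 50 in place of 200. Over all genes, 6 d gave 230 in place of 3 and 8 d 443 in place of 19 with the joint adjustment, 4 d gave 2071 in place of 920 with array weights, and 16 d gave 1010. The number of arrays and, for Prox1 and the second Onecut1 probe set, signals near the filter limit what can be called.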
